A study of Mus musculus with 26 samples.

Results

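Small nucleolar RNA (snoRNA) genes were placed against the domain boundaries of mouse embryonic stem cells (ESCs). The set holds every gene that RefSeq, on the mouse build GRCm38.p6 (mm10), gives the biotype snoRNA on chromosomes 1 to 19 and X, which is 1330 of 49209 annotated genes. By symbol, 93 are Snord genes, 39 are Snora genes, 10 carry the name of a cloned sequence, and 1188 have a predicted-gene symbol (Gm or LOC), 4 of them with a reviewed record. The boundaries are 3515 intervals, each 25 kb wide, in a list made by the authors from pooled libraries of Micro-C, an assay that cuts chromatin with micrococcal nuclease and reads which pieces lie together. The cells were in the G1 phase and had received 0.05% v/v DMSO as vehicle.

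The study has 26 libraries in 5 groups, and every group carries the same modification, a degradable dTAG on the cohesin subunit RAD21, in 1 line of C57BL/6J genotype derived from Bruce-4 ESCs. The ESCs, grown in serum with 2i and LIF, were given DMSO (6 libraries), 500 nM dTAG (6 libraries) or 20 µM A485, which inhibits p300/CBP histone acetyltransferase activity (6 libraries), and epiblast-like cells (EpiLCs) were given 0.05% v/v DMSO or 500 nM dTAG (4 libraries each). For replicates 4 to 6 of the dTAG and A485 ESC groups the growth protocol mentions EpiLCs. Only the boundary list of the DMSO-treated ESCs was used here, so no condition is compared, no value has a replicate error, and the contact depth behind the list is unknown.

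SnoRNAs are short stable RNAs that guide chemical modification of other RNAs in the nucleolus. Box C/D snoRNAs, named Snord, direct methylation of the ribose, and box H/ACA snoRNAs, named Snora, direct the change of uridine to pseudouridine. In mammals most lie in introns of a host gene and are released when the host transcript is spliced. Hosts are often genes of ribosomal proteins or ribosome assembly, or long non-coding RNAs (lncRNAs) of the Snhg (snoRNA host gene) type. Imprinted loci also hold long arrays of snoRNA repeats.

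The start sites of several hosts are shown because the host promoter is where transcription of these snoRNAs begins, and because the results below turn on where such hosts lie. Sequences are from RefSeq, GRCm38.p6, 5′ to 3′ on the strand of the gene, with 30 bases before the listed start and 20 from it. Capitals mark the first transcribed base or, where that base is C and at least 4 bases of C or T follow it, the whole run of C and T. The start sites of Snhg1, Nop56, Rpl7a, Rps12 and Snhg8 lie inside a boundary interval. Those of Gas5, Rpl13a and Rack1 lie 285.2, 296.3 and 25.4 kb from the nearest one.
Snhg1, chr19:8723457-8723506, plus strand: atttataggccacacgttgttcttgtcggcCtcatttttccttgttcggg
Nop56, chr2:130274382-130274431, plus strand: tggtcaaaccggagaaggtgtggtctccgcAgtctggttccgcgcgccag
Rpl7a, chr2:26910777-26910826, plus strand: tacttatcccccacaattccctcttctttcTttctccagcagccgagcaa
Rps12, chr10:23787190-23787239, minus strand: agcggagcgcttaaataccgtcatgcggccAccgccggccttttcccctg
Snhg8, chr3:123508317-123508366, minus strand: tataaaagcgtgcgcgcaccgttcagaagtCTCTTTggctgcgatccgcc
Gas5, chr1:161035136-161035185, plus strand: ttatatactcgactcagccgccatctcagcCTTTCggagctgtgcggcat
Rpl13a, chr7:45128726-45128775, minus strand: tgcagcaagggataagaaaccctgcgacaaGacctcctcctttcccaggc
Rack1, chr11:48800330-48800379, plus strand: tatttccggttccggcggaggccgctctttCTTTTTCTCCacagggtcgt

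Of the 84 hosts of a Snord, Snora or clone-named gene, 70 have a listed start, and 9 of these (12.9%) start with C and at least 4 bases of C or T. The share was 3.03% over all 26794 genes of the promoter table and 3.99% of the 301 listed hosts that hold predicted snoRNA genes only. Such starts, known as terminal pyrimidine tracts, are typical of transcripts for ribosomal proteins and other parts of the translation machinery. Among the lists of hosts, 3 of 13 Snhg hosts and 2 of 21 ribosomal protein hosts had one at a listed start, as did 12 of 37 ribosomal protein genes that hold no snoRNA gene. Snhg8, at a boundary, and Gas5 and Rack1, within domains, are among the matches. A match is a description of the letters at a listed start, and a start listed a few bases away gives none.

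One snoRNA gene could be shown itself because the hairpin of a microRNA covers it. Snora19, in the gene of the translation factor subunit Eif3a, lies 75.6 kb from a boundary at chr19:60774330-60774385 on the minus strand. All of its 56 annotated bases are inside the hairpin of Mir3084-2. Capitals mark the letters ACA, which end 3 bases before the 3′ end, the place where this box stands in the H/ACA class.
Snora19: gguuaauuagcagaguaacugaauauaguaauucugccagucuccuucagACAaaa
Hairpins also covered 73 of 118 bases of Snora34 (Mir1291), 64 of 113 bases of Snora36b (Mir664) and 28 of 82 bases of Snord33 (Mir5121).

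The snoRNA genes with Snord and Snora symbols were near a boundary more often than annotated genes as a whole. The predicted ones were near less often than annotated genes as a whole, at a share close to that of other short genes. A gene was counted as near when an end lay inside a boundary interval or within 10 kb of it. Near a boundary were 24 of 93 Snord genes (25.8%, 95% Wilson interval 18 to 35.5) and 11 of 39 Snora genes (28.2%, interval 16.5 to 43.8). Of the predicted genes, 101 of 1188 were near (8.50%, interval 7.05 to 10.2). Without those of the Snhg14 array, all of them far away, 101 of 1003 were (10.1%, interval 8.36 to 12.1). The same rule called 13.0% of all annotated genes, 18.3% of protein-coding genes, 10.3% of lncRNA genes and 9.37% of the 3970 other genes no longer than the longest snoRNA gene. The intervals treat genes as independent, which members of a shared host are not, and no difference between classes was tested.

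Over all 1330 snoRNA genes, 136 were near (10.2%, interval 8.71 to 12), below the 13.0% of all genes. Without those of Snhg14, 12.1% were near. Gene length enters the comparison with all genes, since a long gene has 2 ends far apart. By its midpoint, 11.2% of protein-coding genes were near. SnoRNA genes had a median annotated length of 130 bases and a longest of 320 bases, so for them end and midpoint hardly differ.

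Inside an interval were 13 Snord, 7 Snora and 60 predicted genes, which is 6.02% of all snoRNA genes beside 8.00% of all annotated genes. The 20 Snord and Snora genes are 15.2% of their 132. None of the 10 clone-named genes was near. The upper limit of 27.8% for this count treats them as independent, although 7 of them share the host Rian. The median distance to an interval was 26.3 kb for Snora genes, 110.7 kb for Snord genes and 195.5 kb for predicted genes, and it was 98.9 kb for protein-coding genes. The Snord median rests on the Snhg14 array. Without it, the 75 other Snord genes had a median of 39.4 kb and 32% were near.

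**Figure D1:**
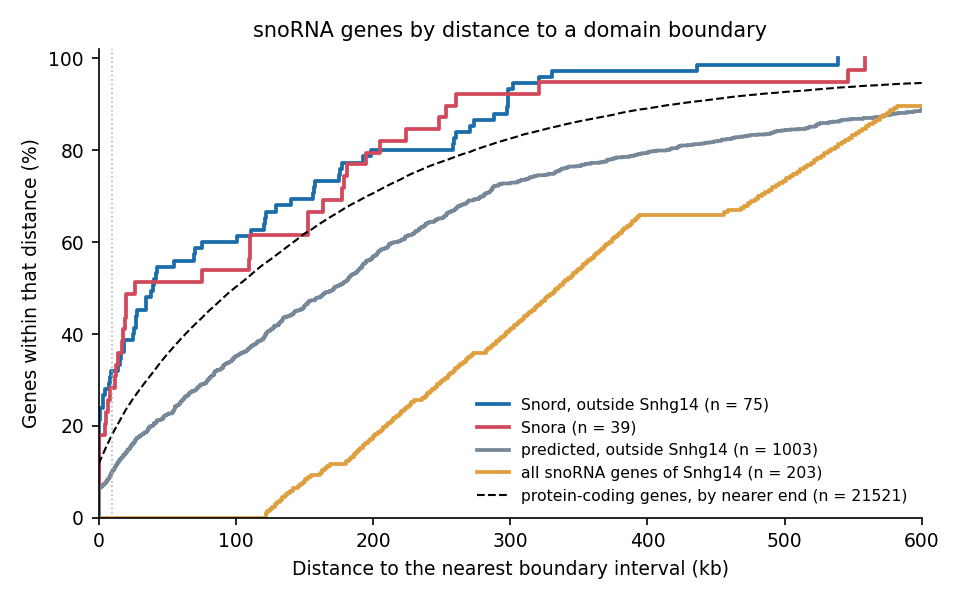
Cumulative share of genes (%) by distance to the nearest boundary interval (kb) for Snord genes outside Snhg14, Snora genes, predicted snoRNA genes outside Snhg14, the 203 snoRNA genes of Snhg14 and all protein-coding genes by their nearer end. The dotted line stands at 10 kb, where Snord stands at 32%, Snora at 28.2%, predicted at 10.1% and Snhg14 at 0.

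The excess of Snord and Snora genes was narrow. Counted by midpoint in 25 kb bins around the centres of all boundaries, 20 of them lay in the central bin and 18 in the next bin towards higher coordinates. These are 4.16 and 3.74 times their mean count in the bins from 200 to 500 kb away. The bin on the lower side had 10 genes, 2.08 times that mean. The same ratio in the central bin was 1.62 for predicted genes outside Snhg14 and 1.62 for protein-coding genes. Counts of Snord and Snora genes in the outer bins ran between 0 and 9, so single bins there are imprecise. Several genes of 1 host often fall in the same bin.

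**Figure D2:**
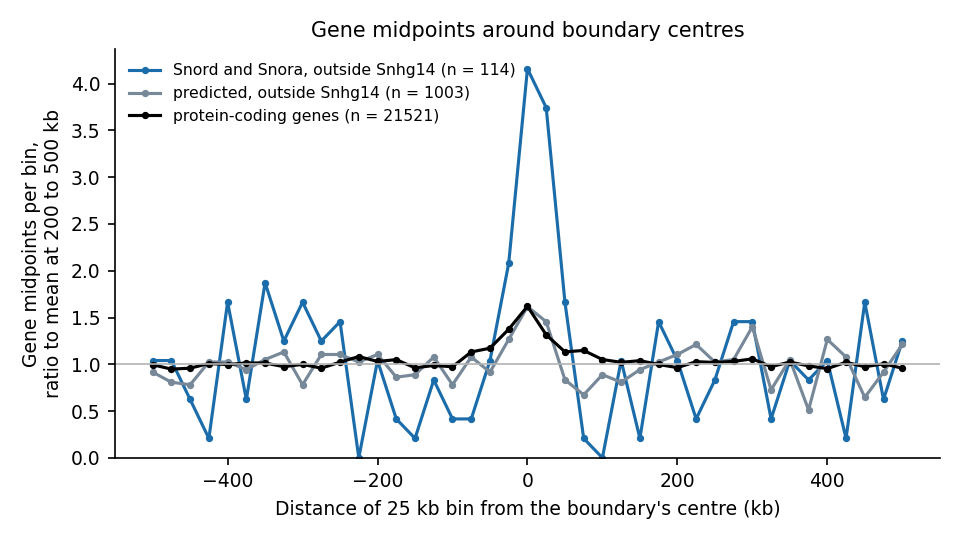
Gene midpoints per 25 kb bin around boundary centres, as a ratio to the mean of the bins 200 to 500 kb away, for Snord and Snora genes outside Snhg14, predicted snoRNA genes outside Snhg14 and protein-coding genes. The x axis runs along the genome coordinate (kb). The Snord and Snora line reaches 4.16 at the centre, and both other lines 1.62.

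Predicted genes were not uniform. Outside Snhg14, those of at most 100 annotated bases were near in 26 of 114 cases (22.8%, interval 16.1 to 31.3) and longer ones in 75 of 889 (8.44%, interval 6.78 to 10.5). The same rule called 13.0% of all annotated genes. Within the shorter class the share was 28.4% of 74 genes of up to 80 bases and 12.5% of 40 genes from there to 100 bases. Among the 26 near genes, 7 lay in Snhg1 and 4 in Rpl7a, all of up to 80 bases, so these counts are not independent. The most frequent length class, 131 to 135 bases, held 335 genes, and 9.85% of them were near.

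The host divided the predicted genes as well. Where the host also held a Snord, Snora or clone-named gene, 21 of 60 predicted genes outside Snhg14 were near (35%, interval 24.2 to 47.6). Where it did not, 37 of 411 were (9.0%, interval 6.6 to 12.2), and without any host, 43 of 532 (8.08%). Predicted records inside a host of known snoRNAs thus stood close to the Snord and Snora share. They share those hosts, so the counts are not independent.

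The known classes were almost all intragenic. A host was taken as the shortest protein-coding or lncRNA gene whose span holds the whole snoRNA gene, regardless of strand, which the gene table does not give. Of 93 Snord genes, 54 lay in protein-coding genes, 36 in lncRNA genes and 3 in neither. All 39 Snora genes had a host, 27 of them in protein-coding genes. Of 1188 predicted genes 55.2% had a host, 361 in protein-coding and 295 in lncRNA genes, with 185 of the latter in Snhg14. Over all classes 793 of 1330 snoRNA genes (59.6%, interval 57.0 to 62.2) lay in 460 hosts. Snhg14 alone held 203 of them, and the interval treats genes as independent. No such share is given here for other short genes.

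Ribosomal protein genes, with 31 hosts, formed the largest of the functional host lists. Their 61 snoRNA genes were near in 20 cases (32.8%, interval 22.3 to 45.3), among them 11 of 35 Snord and Snora genes. In Rps12, a protein of the small subunit, Snora33, Snord100 and 1 predicted gene lay inside the interval chr10:23775001-23800000. In Rpl3, a protein of the large subunit, Snord83b, Snord43 and 1 predicted gene lay inside chr15:80075001-80100000. All 4 predicted genes of Rpl7a lay inside chr2:26900001-26925000, and the 3 snoRNA genes of Rpl17, Snord58b among them, inside chr18:75000001-75025000.

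Other ribosomal protein hosts stood beside an interval or well within a domain. Distances were 3.06 kb for Snord68 in Rpl13, 4.56 and 7.79 kb for Snord15b and Snord15a in Rps3, 6.64 kb for Snora21 in Rpl23 and 7.91 kb for Snora69 in Rpl39. The 5 snoRNA genes of Rpl4 lay 25 to 27.1 kb away and the 3 of Rack1, a ribosome-bound scaffold protein, 25.9 to 28.1 kb away. The 4 Snord genes of Rpl13a lay 297.5 to 298.6 kb away and the 3 snoRNA genes of Rpl5 267.5 to 270.4 kb away. The farthest snoRNA gene of a ribosomal protein host was 538.8 kb from a boundary. The intervals overlapped widely between ribosomal protein genes that held a snoRNA gene (10 of 31 near, 32.3%, interval 18.6 to 49.9) and those that did not (16 of 47, 34.0%, interval 22.2 to 48.3).

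Hosts from ribosome assembly and RNA processing had the highest share among the lists of coding hosts, over few genes. Of their 22 snoRNA genes 10 were near (45.5%, interval 26.9 to 65.3), including 6 of 10 Snord and Snora genes, beside 13.0% of all genes. These 10 lay in 4 hosts, 5 of them in Nop56, so they are not independent. Counted once each, 4 of 10 hosts were near (40%, interval 16.8 to 68.7), beside 18.3% of protein-coding genes. Nop56, a core protein of the box C/D particle itself, starts inside chr2:130250001-130275000. Its 5 snoRNA genes followed just beyond the edge, from Snord110 at 0.515 kb to Snord57 at 3.03 kb. In Ncl, which encodes the nucleolar protein nucleolin, Snora75 and Snord82 lay inside chr1:86350001-86375000. Snord23 lay inside the interval at Nop53, a ribosome assembly factor. Nop58, the partner of Nop56 in the particle, stood apart from these, with its 4 snoRNA genes 42.0 to 54.8 kb away.

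The lncRNA hosts of the Snhg type were split between boundaries and domain interiors. Of 15 hosts counted with Gas5, 7 were near (46.7%, interval 24.8 to 69.9), and of their 39 snoRNA genes 16 (41.0%, interval 27.1 to 56.6). Snhg14 is not among these hosts, since it was listed as imprinted. With it, 7 of 16 hosts and 16 of 242 snoRNA genes (6.61%) were near. Snhg1 held the largest group near any boundary. Of its 8 snoRNA genes 4 lay inside chr19:8700001-8725000 and 4 up to 0.866 kb beyond it, the last of them Snord22, which is needed for processing of ribosomal RNA. Snhg8 (Snora24), Snhg9 (Snora78), Snhg18 (Snord123) and Snhg4 (Snora74a) each had 1 snoRNA gene, inside an interval. Both snoRNA genes of Snhg17 were inside an interval, and both of Snhg11 were 3.22 and 4.53 kb from the same one.

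The remaining hosts of the 15 were farther away. Snora genes of Snhg7 lay at 12.8 and 14.2 kb, those of Snhg3 at 152.3 and 152.8 kb, and the 4 snoRNA genes of Snhg12 at 109.5 to 110.7 kb. Distances were 96.8 kb in Snhg15, 121.5 and 121.8 kb in Snhg5, 175.3 to 177.4 kb in Snhg16 and 192.5 kb in Snhg6. Gas5, which has 8 snoRNA genes like Snhg1, held them 285.4 to 288.3 kb from a boundary, near the middle of a domain of 600 kb. None of these 15 hosts had a snoRNA gene between 14.2 and 96.8 kb.

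Translation factor hosts had no snoRNA gene near. Their count was 0 of 16, which allows a share of up to 19.4% and so does not set them apart from the 13.0% of all genes, and the nearest lay 40.7 kb away. The 5 snoRNA genes of Eif4a2, an RNA helicase of translation initiation, lay 259.0 to 261.6 kb away and the 3 of Eif4a1 305.2 to 307.0 kb away. None of 9 translation factor hosts was near (interval up to 29.9%), beside 14 of 61 translation factor genes without a snoRNA gene (23%).

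**Figure D3:**
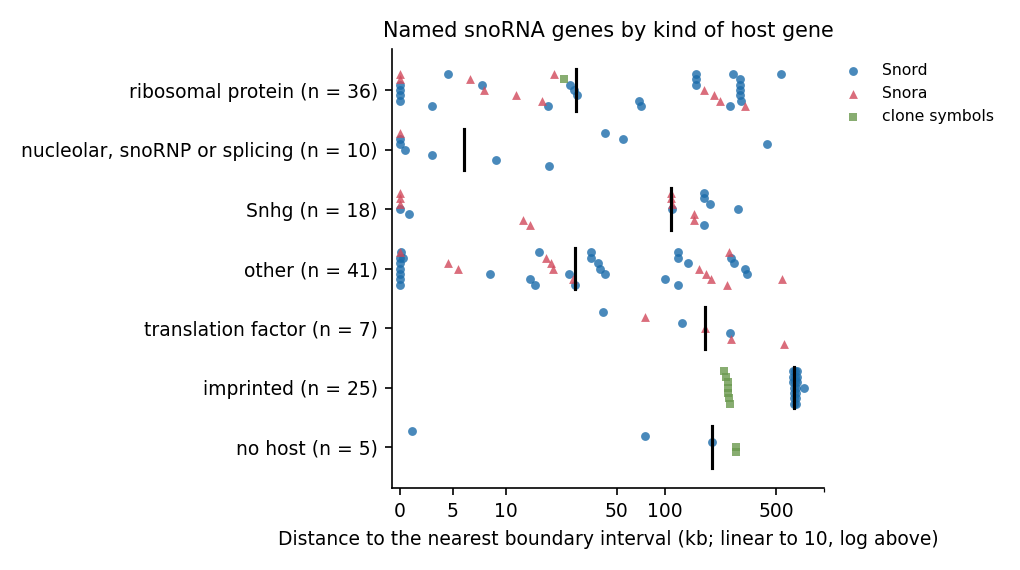
Distance to the nearest boundary interval (kb, linear to 10 and logarithmic above) for each Snord, Snora and clone-named gene, by kind of host. Vertical bars are medians. Points of the ribosomal protein, nucleolar, Snhg and other hosts reach 0, while those of translation factor hosts start at 40.7 kb and those of imprinted hosts at 236.0 kb.

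Hosts outside these lists held 441 snoRNA genes, of which 46 were near (10.4%), but the share differed by kind of record. Near were 12 of the 41 Snord and Snora genes (29.3%, interval 17.6 to 44.5). Snord14c, Snord14d and Snord14e all lay inside chr9:40800001-40825000, in Hspa8, the gene of a constitutive heat shock chaperone. Snord17 lay inside an interval in Snx5, a sorting nexin, Snora31 in Tpt1, and Snord7 in AI450353. In 2410002F23Rik, Snord88c lay inside chr7:44225001-44250000 and Snord88a 0.150 kb beyond it.

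Other near genes of this kind lay farther from the edge. Snora5c in Tbrg4 was 4.58 kb away, Snora35 in Htr2c, a serotonin receptor gene, 5.49 kb and Snord61 in Rbmx, an RNA-binding protein gene, 8.49 kb. Snord53 of Wdr43, a nucleolar host, was the last Snord gene counted, at 9.05 kb. Snord89, which had no host by the rule used, was 1.16 kb away.

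**Figure D4:**
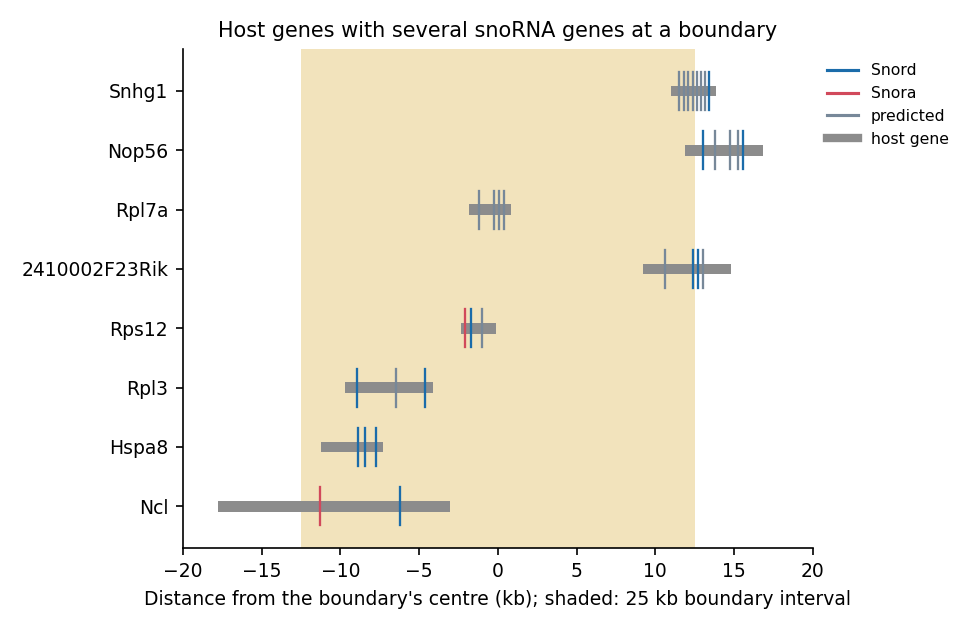
Host genes (grey bars) with their snoRNA genes (ticks coloured by class) around the centre of the nearest boundary (kb), with the 25 kb interval shaded. The 8 snoRNA genes of Snhg1 straddle an interval edge, the 5 of Nop56 follow one, and those of Rpl7a, Rps12, Rpl3, Hspa8 and Ncl lie inside.

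Counted once each, hosts of known snoRNAs were near a boundary in 28 of 84 cases (33.3%, interval 24.2 to 44.0) and hosts of predicted genes only in 84 of 376 (22.3%, interval 18.4 to 26.8). The 2 kinds of host differ in length, with medians of 4.91 and 64.9 kb. Among protein-coding genes of up to 10 kb, 14 of 40 hosts of known snoRNAs were near (35%, interval 22.1 to 50.5), 4 of 22 hosts of predicted genes only (18.2%) and 900 of 7613 genes without a snoRNA gene (11.8%). From 10 to 50 kb the shares were 33.3% of 15, 27.2% of 81 and 20.9% of 8819. From 50 to 200 kb they were 60% of 5, 16.1% of 112 and 22.7% of 3824, so hosts of predicted genes only were near less often than genes without a snoRNA gene there. Above 200 kb, 0 of 1 host of known snoRNAs was near, 30.4% of 79 hosts of predicted genes only and 25.3% of 910 genes without one.

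A host near a boundary could still hold its snoRNA genes away from it. Of the 28 near hosts of known snoRNAs, 25 held a near snoRNA gene, and 12 of the 84 lay wholly inside an interval. Of the 84 near hosts of predicted genes only, 22 held one. A near snoRNA gene was also held by 1 and 7 hosts of these kinds whose own ends were not near. By listed start site, 18 of 70 hosts of known snoRNAs were near (25.7%, interval 16.9 to 37.0) and 37 of 301 hosts of predicted genes only (12.3%), beside 11% of the 26794 genes with a listed start.

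Hosts with 2 or more snoRNA genes mostly held them on 1 side of the limit. Of 67 such hosts, 16 had all their snoRNA genes near, 47 had none near and 4 were divided. The divided ones were Gm33384, Taf1d, Tmem117 and Wdr43. In Taf1d, a subunit of the RNA polymerase I initiation factor, the 6 predicted genes lay 8.19 to 11.1 kb from the interval, so that 10 kb divides an array of 3.01 kb. On both sides of that limit, LOC115487278 of Taf1d (9.68 kb) and Gm22304 of Cul5 (9.90 kb) were the last inside, and LOC115487273 of Taf1d (10.0 kb, just beyond) and Gm24791 of Dpp10 (10.1 kb) the first outside.

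Seen from the boundaries, snoRNA genes touch few of them. Of 3515 boundaries 94 had a snoRNA gene near (2.67%, interval 2.19 to 3.26), 74 of them 1 gene, 20 at least 2 and 11 at least 3. The 35 near Snord and Snora genes lay at 26 boundaries. After Snhg1 with 8 and Nop56 with 5, boundaries with 4 near snoRNA genes were those of Rpl7a, of Snhg17 with Snhg11, of 2410002F23Rik, and of Taf1d with Cep295. Near snoRNA genes were most frequent on chromosome 19 (10 of 27, 8 of them in Snhg1), chromosome 18 (9 of 32) and chromosome 2 (20 of 80). Shared hosts weigh on the other 2 as well. On chromosome 18, 3 were in Rpl17 and 2 in Hspa9. On chromosome 2, 5 were in Nop56, 4 in Rpl7a and 4 at the boundary of Snhg17 with Snhg11. The lowest frequency was on chromosome 7 (8 of 260), which carries Snhg14. Of all annotated genes on chromosomes 19, 18, 2 and 7, 13.8%, 16.2%, 14.1% and 9.97% were near.

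Several further hosts with 3 or more snoRNA genes lay within domains. The distances were 14.3 to 16.2 kb in Gnl3, which encodes nucleostemin, 13.5 to 15.3 kb in the lncRNA Zfas1 and 37.8 to 39.4 kb in Rabggtb. Farther away were those of the ribosomal protein genes Rpl23a (156.3 to 158.1 kb) and Rpsa (203.8 to 205.4 kb). The 3 Snord genes of the lncRNA 2410006H16Rik lay 120.4 to 121.9 kb away and the 3 predicted genes of Ubap2 203.1 to 211.5 kb away. Robo2, an axon guidance receptor gene of 1555 kb that spans a boundary, held its 3 predicted genes 97.1 to 741 kb away. The snoRNA genes spanned 10.8 kb in Ubap2 and 644 kb in Robo2.

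Predicted genes inside an interval had hosts of many kinds or none. In alphabetical order the list starts with Gm22022, without a host, Gm22200 in Hspa9, the gene of a mitochondrial chaperone, and Gm22266, Gm22298, Gm22371 and Gm22495, without hosts. It goes on with Gm22516 in Gpr107, Gm22806 in Cks2, a cell cycle gene, Gm23126 in Mrps9, a mitochondrial ribosomal protein gene, and Gm23182 in Cs, the gene of citrate synthase. Without hosts were 26 of the 60, a share close to that of all predicted genes (532 of 1188).

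The imprinted arrays were the largest snoRNA groups and lay inside domains. Snhg14, a lncRNA of 1177 kb at chr7:59272737-60450177, is the host of 203 snoRNA genes, and 3 more lie in Ipw, a shorter lncRNA nested in it. None was near a boundary. The upper limit of 1.86% for 0 of 203 treats these genes as independent, and since all 203 share 1 host it is too tight. All 206 lay in 1 domain of 2950 kb, chr7:59225001-62175000, which holds 4 protein-coding genes. The nearest snoRNA gene was 122.2 kb and the farthest 755.9 kb from an interval.

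Along this domain the array falls into blocks. From 122.2 kb onwards stood 134 predicted genes of 70 to 85 bases with a median spacing of 1.87 kb, most of them in a block on the side of Ube3a, a ubiquitin ligase gene. Another 54 predicted genes of 86 to 100 bases had a median spacing of 2.53 kb. The 17 genes with Snord116l symbols, repeats of the Prader-Willi syndrome region, stood at 636.7 to 679.8 kb with the same median spacing, 2.53 kb. Snord64 stood at 753.8 kb, apart from the other Snord genes, with the farthest predicted gene at 755.9 kb and Snrpn at 757.5 kb. Ube3a itself begins 3.75 kb from the interval, so this domain has a coding gene at its edge and its snoRNA genes within.

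**Figure D5:**
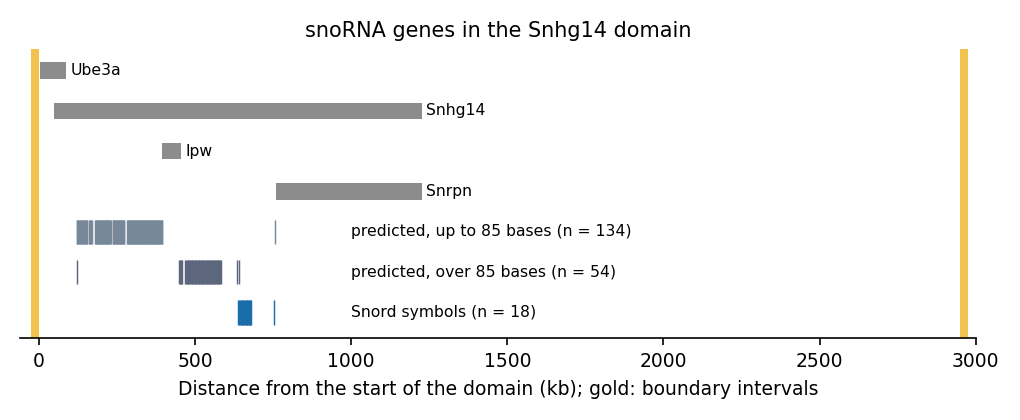
The Snhg14 domain by distance from its start (kb), with boundary intervals in gold, genes in grey and the 206 snoRNA genes as ticks by length class and symbol. The ticks run from 122.2 to 755.9 kb of a domain of 2950 kb, and the rest of the domain holds none.

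Rian, a lncRNA transcribed from the maternal chromosome, showed the same placement on a smaller scale. Its 11 snoRNA genes, 7 of them clone-named, lay 231.1 to 257.1 kb from a boundary in the domain chr12:109400001-109975000. That domain of 575 kb holds 19 snoRNA genes in all. Its protein-coding gene Dlk1 began 52.5 kb from the interval. Both imprinted hosts together had 0 of 214 snoRNA genes near.

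The snoRNA genes listed here for processing of the ribosomal RNA precursor had no common position. Snord22 and the Snord14 copies of Hspa8 were at a boundary, whereas Snord14a, in the ribosomal protein gene Rps13, was 258.2 kb away. Snord13 was 75 kb, Snora73a 152.8 kb, Snora73b 152.3 kb and Snord118 198.4 kb away. Since a host was defined as holding the whole snoRNA gene, the position of a copy follows that of its host by construction. Genes of related RNAs with other biotypes are outside the set. Of these, Rnu3a was 8.47 kb from a boundary, its 4 Rnu3b relatives 18.2 to 46.4 kb, and the telomerase RNA gene Terc 60.2 kb, while 9 Scarna genes, for guides of the Cajal body, ranged from 0 (Scarna9) to 545.6 kb (Scarna2).

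The members farthest from any boundary were predicted genes in long domains. Gm23602, in the neuronal gene Cntnap5b, lay 2553 kb away, LOC115487674 2247 kb and Gm24122 1668 kb, all 3 in a domain of 6075 kb on chromosome 1. Gm24246 on chromosome 18 lay 1965 kb away and Gm23891 on chromosome 3 lay 1699 kb away. The farthest Snora gene was at 558.9 kb.

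Domains with a Snord or Snora gene held more protein-coding genes per 100 kb than domains as a whole. These 66 domains had 2.36 protein-coding genes per 100 kb and a median of 16, against 0.807 per 100 kb and a median of 3 over all 3495 domains. The 656 domains with predicted snoRNA genes only had 0.604 per 100 kb. Median domain lengths were 762.5 and 775 kb for these 2 kinds and 450 kb for the 2773 domains without a snoRNA gene. A longer domain has more room for a gene of any kind. Many Snord and Snora genes lie in protein-coding hosts, so domains with one were in part chosen for holding a coding gene. The set of all domains includes some without any.

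The shares near a boundary differed between classes of gene density in no common direction, and the part of density in them was not tested. Outside Snhg14, Snord and Snora genes had a median of 5 protein-coding genes within 100 kb, predicted genes 1 and protein-coding genes 4. With 2 to 4 such neighbours, 21 of 44 Snord and Snora genes were near (47.7%, interval 33.8 to 62.1), beside 22.4% of protein-coding genes in the same class. With 5 to 9 neighbours 6 of 46 were (13.0%, interval 6.12 to 25.7), beside 14.4%, and with 10 or more 5 of 20 (25%, interval 11.2 to 46.9), beside 12.1%. The last of these intervals includes the protein-coding share and the first does not. In the class of 0 or 1 neighbour there were 4 Snord and Snora genes, of which 3 were near. Predicted genes were near in 5.44% of cases with 0 or 1 neighbour, 16.0% with 2 to 4, 7.81% with 5 to 9 and 38.1% (16 of 42) with 10 or more. Over all annotated genes the shares in these classes were 9.48%, 16.8%, 13.1% and 11.9%. Genes of a shared host have much the same neighbours, so the counts are not independent.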

How the data were processed

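The authors deposited 1 list of boundary intervals for the pooled DMSO-treated ESC libraries, which holds positions (chromosome, start, end) and no score. Reads were handled with BWA 0.7.17 and Juicer 1.22.01 on mm10, per the submitters' processing notes. How boundaries were called, at which resolution and threshold, is not given in the sources used here. Lists of the other 4 groups were not used here.

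Genes came from RefSeq, GRCm38.p6. Genes of unplaced, alternate or patch scaffolds (345, of which 10 are snoRNA genes) were left out. Positions are counted from 1. Distance ran from the nearer gene end to the interval edge and was 0 on overlap. Domains are the stretches between neighbouring boundaries. The host was the shortest containing protein-coding or lncRNA gene, without strand, and 23 snoRNA genes had several candidates. Shares have 95% Wilson intervals, which cover counting error only. With 1 pooled list no test between conditions was possible, and none was built between gene classes. The distance function was tested on simulated data.

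The promoter table holds 70 of 84 hosts of known snoRNAs and no snoRNA gene, so the planned search for box C letters was not run. Named were snoRNA genes inside an interval, hosts with at least 3, Snhg hosts, cleavage and repeat families, the 5 farthest members and 2 on each side of 10 kb. Groups of over 12 gave examples in alphabetical order. A few hosts that the rule names are not reported here. Near genes outside an interval, nucleolar hosts and the examples beyond this rule were chosen after their values were seen. Members, host lists and rules were chosen with earlier results of these data known. Software was pandas 2.3.3, numpy 2.4.6 and scipy 1.17.1 under Python 3.11.15, with matplotlib 3.10.9 for plots.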

Additional observations from a re-analysis of the deposited data

How the results depend on the processing

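Of 34 alternatives, 16 moved a share beyond its 95% interval. The share of snoRNA genes near a boundary, 10.2%, became 6.02% inside intervals only, 15.8% within 25 kb and 21.7% within 50 kb (19.4% and 28.1% of all genes). It was 26.5% over Snord and Snora symbols, 24.7% without predicted genes and, added after seeing the data, 12.1% without Snhg14. Leaving out each chromosome gave 9.28% (without 2) to 12% (without 7), and counting each host once gave 9.93%. The Snord share was 14% inside intervals, 44.1% within 50 kb, and 32.7% with hosts counted once. The Snora share was 48.7% within 25 kb and 51.3% within 50 kb. The predicted share, in windows added after seeing the data, was 5.05%, 13.6% and 19% at 0, 25 and 50 kb. With protein-coding hosts only, 34.4% of snoRNA genes had a host. Hosts were near in 35.4% of cases within 25 kb and 44.6% within 50 kb. Wider windows hold more genes by construction.

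No paired analysis was possible because the deposited list pools all replicates and gives no value per sample. Of the 460 hosts, 17 lay wholly inside an interval of 25 kb, and for these the list cannot place a boundary within the gene. A whole interval lay inside 43 other hosts. The strength of boundaries, their presence in single replicates and the effect of dTAG or A485 were not analysed here. Transcription of predicted records was not analysed here.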
